A study of Drosophila melanogaster with 21 samples.

Results

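Ush-depleted and dMi-2-depleted Drosophila cells were compared directly, gene by gene, to see which genes part the loss of a GATA cofactor from the loss of the chromatin remodeller it binds. The libraries compared were 6 of the 21 of the series and stand in a single normalised table. They were the 3 RNA-seq libraries of cells treated with double-stranded RNA against all isoforms of ush (dsUsh) and the 3 treated against Mi-2 (dsMi-2). The 3 control libraries of that table came from cells that received double-stranded RNA against EGFP (dsEGFP). They served to place each difference and, in a fit over all 9 libraries, shared in the estimate of the spread. A separate table of 4 dsUsh-B and 4 dsEGFP libraries was set beside the result. All cells were S2[Cas9] cells, an embryonic hemocyte-like line that expresses Cas9, and RNA was taken 4 days after transfection. The study's methods name 3 separate transfections, the number of libraries per group in the first table but not in the Ush-B table. It is a single cell line grown in culture, RNA interference leaves part of each transcript, and the dsRNA against ush lowers every isoform at once. Values are normalised read counts per gene, all isoforms of a gene together.

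U-shaped (Ush) is the FOG-type multi-zinc-finger partner of the GATA factors Serpent and Pannier. In Drosophila blood cells it holds back the crystal cell and lamellocyte fates, and in mammals FOG proteins bind the NuRD complex through a short motif at their start. dMi-2 is the ATPase of NuRD, which pairs nucleosome remodelling with histone deacetylation, and it also works in dMec, a complex with the zinc-finger protein MEP-1. Both proteins are best known as repressors of transcription.

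The 9 libraries held between 21366051 and 26101822 reads on genes, and every deposited value was a whole multiple of 1 step per library (100%, tolerance 0.05). Mitochondrial large ribosomal RNA took 0.5% to 0.8% of reads in dsUsh, 0.64% to 1.9% in dsMi-2 and 0.64% to 1.78% in dsEGFP, with the third replicate highest in each group. Same-numbered replicates deviated together in all 9 pairs (correlation 0.239 to 0.569), and the replicate number was a block in the fit. Of 10 hemocyte markers 9 were measured, and their summed level was 30803 to 34093 in dsUsh, 22660 to 25674 in dsMi-2 and 14186 to 18824 in dsEGFP, while NimC1 was below the filter on low counts. The scavenger receptor crq made up most of that sum, with 27516 to 31194 counts in dsUsh, and the list as a whole did not follow it: 7 of the 9 had a negative difference between dsUsh and dsMi-2 (median -0.52), with 1 called higher and 2 lower. The part of these differences in the results was not tested. Genes are named by a fixed rule of size, and the further opposite genes and the exceptions of lists were chosen after their values were seen.

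The targets came first. The Mi-2 transcript stood at 1567, 1125 and 1152 normalised counts in dsMi-2, against 5541, 5006 and 4623 in dsUsh and 5247, 5417 and 4273 in control. It fell by 1.97 on the log2 scale after its own depletion (limma, adjusted p = 2.99e-05) and differed by 1.99 ± 0.10 (SE, n = 3 against 3) between the depletions. The ush transcript fell less: it read 4089, 3810 and 3341 in dsUsh, 5747, 5864 and 5066 in dsMi-2, and 5276, 4789 and 3929 in control. The log2 change of ush from control was -0.31 (adjusted p = 0.00702), and between the depletions it was -0.57 ± 0.07 (adjusted p = 0.000295). The dsUsh libraries lay below all dsMi-2 libraries for ush but overlapped the control. Both loci overlap other annotated genes, and the transcript level says nothing of how far the proteins fell.

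Of 9132 genes tested, 3231 (35.4%) differed between dsUsh and dsMi-2 at a limma adjusted p under 0.01. More were higher in Ush-depleted cells, 1857 (20.3%), than lower, 1374 (15.0%). The counts of gene lists below are to be set beside these shares. A 2-fold limit kept 898 of the higher and 545 of the lower genes, and a 16-fold limit kept 197 and 58. The 3 dsUsh libraries lay wholly outside the range of the 3 dsMi-2 libraries for 4756 genes (52.1% of those tested) and for 3071 of the called genes. The split by direction depends on the scaling: the median log2 difference over all genes was -0.01 with the authors' size factors and -0.16 and -0.13 after upper-quartile scaling and quantile normalisation, and the higher genes went from 57.5% of the calls to 1462 of 3605 and 1517 of 3647. Without the replicate block 2082 genes were called, and without dsMi-2 replicate 3 or dsMi-2 replicate 2 the count was 1782 or 1956. A fit of the 6 dsUsh and dsMi-2 libraries alone called 2757 genes, 2657 of them shared with the 3231.

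The direct differences came more often from the Ush side. Against control 2601 genes (28.5%) were called in dsUsh and 1187 (13.0%) in dsMi-2, and for 2210 of the 3231 direct calls (68.4%) the change from control was larger in dsUsh. The 1857 higher genes were made up of 1012 that rose only in dsUsh, 230 that fell only in dsMi-2, 91 that did both, 78 that rose in both, 6 that fell in both and 440 called against control in neither. The 1374 lower genes held 564 that fell only in dsUsh, 295 that rose only in dsMi-2, 59 that did both, 35 that rose in both, 9 that fell in both and 412 called in neither. All these comparisons with control use the same 3 dsEGFP libraries, so a chance value in a control library moves both depletions the same way.

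**Figure D1:**
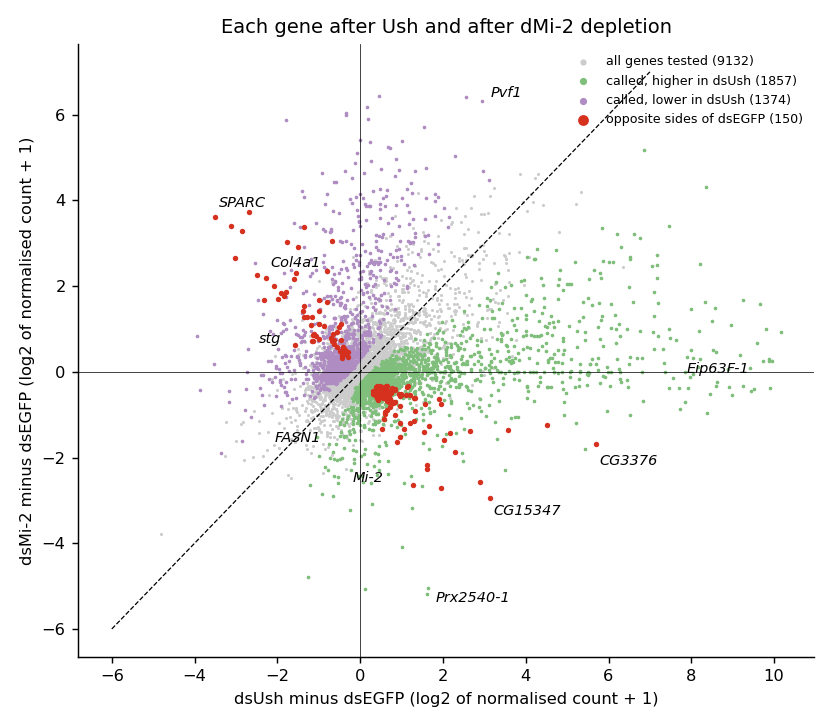
Log2 change of each of 9132 genes from the dsEGFP control after Ush depletion (horizontal axis) and after dMi-2 depletion (vertical axis), on the scale of log2 of the normalised count plus 1. Genes called higher (1857) and lower (1374) in dsUsh than in dsMi-2 lie on either side of the dashed line of equal change, and the 150 genes that moved to opposite sides of the control are red.

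The largest differences belonged to genes that were almost silent in control and in dMi-2-depleted cells and high in Ush-depleted cells. Eip63F-1, a calcium-binding protein named for its induction by ecdysone, read 3254, 7563 and 6848 in dsUsh and 6.8, 3.0 and 1.9 in dsMi-2, with 1.8, 7.3 and 7.5 in control. The log2 difference was 10.26 ± 0.53 (adjusted p = 6.85e-06). Dbi, an acyl-CoA-binding protein, read 3916, 7263 and 4740 against 4.8, 6.0 and 5.8 (9.62 ± 0.30), and Cyp9h1, a cytochrome P450, read 5261, 21704 and 10370 against 14.5, 11.9 and 12.7 (9.56 ± 0.39). None of the 3 genes was called between dsMi-2 and control, and the dsUsh and dsMi-2 libraries did not overlap in any of them.

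The other 7 of the 10 largest were spheroide and CG9672, both serine protease-like genes, CG4562, named Mrp5 in RefSeq and an ABC transporter, and CG30151, CG17930, CG15126 and CG5506. CG30151 was even across libraries, at 2173, 2347 and 1998 in dsUsh against 2.9, 2.0 and 0.0 in dsMi-2. CG9672 was uneven, at 9196, 107698 and 11051 against 25.2, 27.8 and 31.2, with dsUsh replicate 2 far above the others. CG15126 had 2 reads over the whole dsMi-2 group, and its mean was 2020-fold higher in dsUsh, with an exact Poisson 95% interval of 558 to 16600 that covers the counting error of those reads only. Of the 898 genes called at least 2-fold higher in dsUsh, 510 were highest in dsUsh replicate 2, 259 in replicate 3 and 129 in replicate 1. Without dsUsh replicate 2 the direct comparison called 2443 genes.

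The largest differences the other way were of 2 kinds, genes that rose in dMi-2-depleted cells from near silence and genes that moved apart in both directions. Spn88Eb, a serpin, read 167, 600 and 227 in dsMi-2 with 2 reads over the dsUsh group, a ratio of 485 (95% counting interval 134 to 4010). CG4927, a serine protease, read 270, 524 and 355 in dsMi-2 against 4.3, 3.4 and 3.2 (log2 difference -6.32 ± 0.34, adjusted p = 7.89e-06). CG6357 read 1996, 1971 and 1047 against 28.7, 19.3 and 25.6 (-5.99 ± 0.31). Fili (-6.38), goe (-6.01) and Myo10A, an unconventional myosin (-5.71), followed the same course and were low in control and in dsUsh alike. These 6 genes were called against control in dsMi-2 and not in dsUsh. Fili, goe and Myo10A overlap other annotated genes.

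SPARC had the widest gap of the genes that fell in dsUsh and rose in dsMi-2. SPARC is a collagen-binding glycoprotein that blood cells and fat body secrete into basement membranes. It stood at 28240, 35777 and 39000 in dsMi-2, at 1931, 4009 and 2844 in control and at 332, 205 and 215 in dsUsh. It rose by 3.60 in dsMi-2 (adjusted p = 0.000163), fell by 3.52 in dsUsh (adjusted p = 5e-05), and the depletions lay -7.12 ± 0.28 apart (adjusted p = 2.58e-06). No library of any group reached into the range of another.

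In all, 150 genes were called against dsEGFP in both depletions with opposite signs, 91 up in dsUsh and down in dsMi-2 and 59 the reverse, beside 362 called in both with the same sign (269 up, 93 down). The direct test called every one of the 150, as their choice nearly ensures. In 133 of them the 3 control libraries lay between the depletions without overlap. That order held for 5.64% of all genes tested, but the choice of the 150 favours it, so it is no separate support. The 91 had a median log2 change of 0.74 in dsUsh and -0.62 in dsMi-2, and the 59 had -1.06 and 1.12. Changes of at least 2-fold in both directions were found in 43 of them, 18 and 25. The count is sensitive to single libraries: 32 of the 150, 18 and 14, were opposite in all 9 fits that left out a library, and with an adjusted p under 0.05 the counts were 243 and 139. Of the opposite genes named in this text, SPARC, Glycogenin, Tsp96F, boi, CG10660, ifc, Pis, CG1673, CG2118 and Ced-12 were among the 32. The others, such as CG3376, Col4a1, vkg, simj, fabp, lace and mys, were not opposite in all 9 fits. Leaving out dsMi-2 replicate 1, 2 or 3 gave 55, 33 and 25 genes up in dsUsh and 31, 28 and 18 the reverse, and leaving out dsEGFP replicate 1, 2 or 3 gave 44, 30 and 41 and 30, 21 and 23. Annotated neighbours overlap 64 of the 150, so reads of those genes may be shared.

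**Figure D2:**
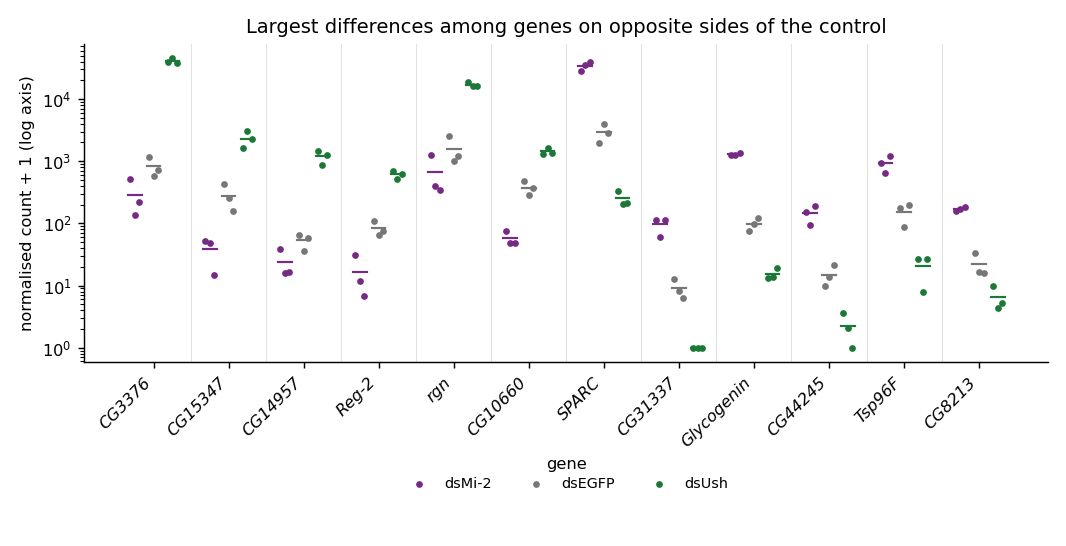
Normalised counts plus 1 on a log axis in each dsMi-2 (purple), dsEGFP (grey) and dsUsh (green) library for the 6 genes with the largest direct difference in each opposite pattern; points are the 3 libraries and bars their mean. CG3376 to CG10660 were highest in dsUsh and lowest in dsMi-2, SPARC to CG8213 the reverse.

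The widest gap in the first pattern was that of CG3376, which the RefSeq table also lists as an acid sphingomyelinase, an enzyme that releases ceramide from sphingomyelin. It read 39806, 44902 and 37931 in dsUsh, 506, 134 and 217 in dsMi-2 and 1183, 573 and 731 in control, a direct difference of 7.37 ± 0.31 (adjusted p = 3.06e-06). CG15347 read 1657, 3032 and 2231 in dsUsh, 50.4, 47.7 and 13.6 in dsMi-2 and 424, 251 and 157 in control (6.07 ± 0.39). Reg-2 read 688, 525 and 616 against 30.1, 10.9 and 5.8, with 107, 64.6 and 74.7 in control (5.47 ± 0.35). In each of the 3 genes the groups stood apart in the order dsUsh, dsEGFP, dsMi-2. CG14957 (5.75), rgn, a lectin-type regeneration gene (4.92), and CG10660 (4.67) completed the 6. For rgn, dsMi-2 replicate 1 (1264) lay within the control range (992 to 2513), and CG14957 had dsMi-2 replicate 1 (37.8) just above the lowest control library (34.4).

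Enzymes of lipid chemistry recurred among the 91. They and the pathway lists in this paragraph and the next were picked after their values were seen, so their counts describe and do not test. Ceramide is built from serine and palmitoyl-CoA by serine palmitoyltransferase, ketosphinganine reductase, ceramide synthase and a desaturase. The palmitoyltransferase subunit lace read 19506, 18348 and 21057 in dsUsh, 8491, 8073 and 8290 in dsMi-2 and 12561, 11988 and 12775 in control (1.24 ± 0.07). The desaturase ifc read 18880, 19821 and 22250 against 3998, 3224 and 4091, with 7831, 7532 and 9511 in control (2.43 ± 0.08), and the reductase CG10425 (Kdsr) differed by 0.89. All 3 rose in dsUsh and fell in dsMi-2, without overlap between any groups. Over the 14 sphingolipid genes measured, 10 were higher and 0 lower in dsUsh than in dsMi-2 (median 1.13), including the sphingomyelinase-like CG15533 (9.32) and the synthase SMSr (2.28), while schlank, the ceramide synthase, did not pass (-0.02). In each of the 9 fits with a library left out 10 were called higher.

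Phospholipid assembly genes leaned the same way. The route joins choline or ethanolamine to diacylglycerol, or inositol to CDP-diacylglycerol. The inositol transferase Pis read 2754, 3184 and 3762 in dsUsh, 796, 940 and 1154 in dsMi-2 and 1248, 1377 and 1560 in control (1.75 ± 0.07). The choline/ethanolamine transferase bbc (1.17) and the acyltransferase fu12, named Agpat2 in RefSeq (2.39), were likewise opposite. Lpin, the phosphatidate phosphatase (1.59), Pcyt1, the rate-limiting enzyme of phosphatidylcholine synthesis (direct difference 1.5), and eas, ethanolamine kinase (1.36), fell in dsMi-2 and were not called in dsUsh against control. Of 12 genes of the route 10 were higher and 1 lower in dsUsh. The exception was Pect, the counterpart of Pcyt1 in the ethanolamine branch, which fell in both and further in dsUsh (-0.52). With a library left out 8 to 10 were called higher, and without the replicate block 7.

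Branched-chain amino acid breakdown gave 4 of the opposite genes. Bcat, the transaminase that takes the first step on leucine, isoleucine and valine (CG1673), read 13999, 15079 and 12730 in dsUsh, 1740, 1642 and 2160 in dsMi-2 and 3565, 4480 and 5381 in control (2.92 ± 0.14, adjusted p = 5.11e-06). The subunits of methylcrotonyl-CoA carboxylase, on the leucine arm, followed: Mccc1 (CG2118) with 2358, 2479 and 2159 against 339, 247 and 329, and Mccc2 (CG3267) with a difference of 1.93. The valine-arm hydrolase Hibch (CG5044) differed by 1.14. These 4 rose in dsUsh and fell in dsMi-2. Of the 12 pathway genes 10 were higher in dsUsh and 0 lower (median 1.37), 9 rose in dsUsh against control and 5 fell in dsMi-2, and 10 were called higher in each fit that left out a library.

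Single genes of adhesion, actin and membrane traffic were also among the 91, and are named here after their values were seen, with no list behind the grouping. The integrin beta subunit mys read 59089, 57760 and 58136 in dsUsh, 21466, 20600 and 19318 in dsMi-2 and 33486, 29545 and 25353 in control (1.51 ± 0.10). Vinculin (Vinc, 1.65), the Arp2/3 subunit Arp2 (1.53), the Rac activator Ced-12 (1.53) and the growth factor Pvf3 (1.28) shared the pattern. Of all 8 Arp2/3 genes 3 were higher and 1 lower (median 0.12). The vacuolar proton pump subunits Vha68-2 (1.24) and VhaAC39-1 (1.05), the adaptor AP-1-2beta (0.90) and the endosomal chaperone Rme-8 (0.72) were also among the 91. Rme-8 had the smallest gap of them. Among 23 measured Vha genes, which encode the pump that acidifies endosomes and lysosomes, 16 were higher and 1 lower in dsUsh (median 0.64). Of 27 Rab GTPases 14 were higher and 4 lower, and of 26 Vps genes 12 and 1. These 3 families were also taken up after their values were seen, and without dsMi-2 replicate 3 the higher counts were 10, 6 and 4 and the lower 0, 1 and 0.

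Among the 59 genes in the reverse pattern, those of the basement membrane stood beside SPARC. Collagen IV forms a sheet-like network there and in the fly is built from Col4a1 and vkg. Col4a1 read 142, 68.2 and 74.7 in dsUsh, 1555, 2905 and 1808 in dsMi-2 and 597, 450 and 314 in control (-4.47 ± 0.31, adjusted p = 2.18e-05). Its partner vkg read 129, 86.4 and 81.1 against 952, 1767 and 1135, with 385, 340 and 300 in control (-3.67 ± 0.24). Both chains rose in dsMi-2 and fell in dsUsh without overlap of any groups, but neither stayed opposite in every fit that left out a library.

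Laminins, the other network of the membrane, fell in dsUsh and were not called in dsMi-2 against control. LanB2 read 2712, 713 and 1774 in dsUsh against 21587, 18232 and 20266 in dsMi-2 and 20089, 15303 and 17627 in control (-3.73 ± 0.28), and LanB1 (-2.03) and LanA (-1.93) were alike. Ppn, papilin, did the same (-2.43). In contrast Idgf4, a chitinase-like growth factor, rose from 4.5, 2.1 and 2.1 in control to 283, 134 and 98.4 in dsMi-2, with 13.0, 9.1 and 2.1 in dsUsh (-4.36 ± 0.37). Of 27 basement membrane and plasma protein genes 15 were lower and 1 higher in dsUsh, with a median of -1.28 beside -0.01 over all genes. The exception was Tig, tiggrin, an integrin ligand, which fell in dsMi-2 (0.84). The 15 ranged from 12 to 15 over the fits with a library left out.

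Other members of the 59 had wide gaps. Glycogenin, the primer of glycogen, read 12.2, 12.5 and 18.1 in dsUsh, 1251, 1242 and 1344 in dsMi-2 and 75.1, 95.8 and 121 in control (-6.41 ± 0.16, adjusted p = 8.72e-07). CG44245 overlaps that gene and differed alike (-6.15), so the pair may share reads. CG31337 had no read in any dsUsh library and 114, 59.7 and 113 in dsMi-2, and was at least 93.2-fold lower in dsUsh against a floor of 3 counts over the group. Tsp96F, a tetraspanin (-5.68), CG8213, the protease filzig (flz in RefSeq, -4.79), DAAM, a formin (-4.74), and boi, a Hedgehog co-receptor (-3.75), also parted this way. For boi the move was mostly in dsMi-2, with 2592, 2873 and 3890 against 300, 340 and 486 in control and 220, 206 and 259 in dsUsh. Smaller opposite moves were seen for the SUMO gene smt3 (-1.01), the citrate synthase kdn (-1.40) and Gclm, the glutathione synthesis subunit (-0.93).

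Of the NuRD and dMec subunits besides Mi-2 itself, 2 passed the direct test. The p66 subunit gene simj read 973, 1042 and 932 in dsUsh, 2766, 3106 and 3007 in dsMi-2 and 1174, 1423 and 1499 in control. It rose by 1.12 in dsMi-2 and fell by 0.47 in dsUsh (direct difference -1.59 ± 0.08, adjusted p = 7.8e-06), without overlap between the groups. Caf1-55, the histone-binding subunit, was lower in dsUsh by 0.52 (adjusted p = 0.00105) at 4164, 3919 and 3848 against 5358, 5914 and 5835. Differences did not pass for MBD-like (-0.36), MTA1-like (-0.27), HDAC1 (-0.10), CDK2AP1 (0.004) and MEP-1 (-1.17, at 8.7 to 82.9 counts in the 6 libraries). Of the 8 genes, Mi-2 included, 1 was higher and 2 were lower in dsUsh. After upper-quartile scaling, which moved the median of all genes to -0.16, 6 were called lower and CDK2AP1 stood at -0.14.

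**Figure D3:**
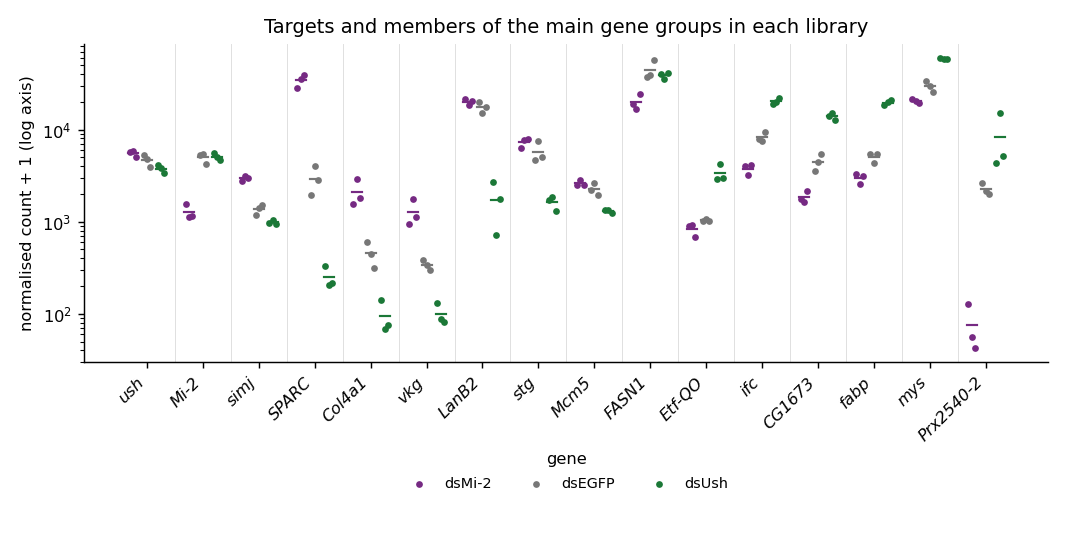
Normalised counts plus 1 on a log axis in each dsMi-2 (purple), dsEGFP (grey) and dsUsh (green) library for both targets and 14 genes of the groups described; points are libraries and bars group means. SPARC, Col4a1, vkg and simj were highest in dsMi-2 and lowest in dsUsh, ifc, CG1673, fabp and mys the reverse, LanB2, stg and Mcm5 were low in dsUsh, and FASN1 and Prx2540-2 were low in dsMi-2.

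Genes that burn fatty acids parted the depletions mostly from the Ush side, while the list of genes that build them was called about as often as all genes. Mitochondrial and peroxisomal beta-oxidation shortens acyl-CoA chains. The electron-transfer flavoprotein dehydrogenase Etf-QO read 2869, 4215 and 2948 in dsUsh, 890, 927 and 673 in dsMi-2 and 1025, 1069 and 1014 in control (2.00 ± 0.12, adjusted p = 1.36e-05). The carnitine palmitoyltransferase whd read 5456, 9856 and 6331 against 1940, 2380 and 1833, with 1446, 1260 and 1162 in control (1.78 ± 0.16). The medium-chain acyl-CoA dehydrogenase CG12262 (Mcad) and the enoyl-CoA isomerase-like CG4594 were also higher in dsUsh (2.33 and 1.96). Each of the 4 rose in dsUsh and was not called in dsMi-2.

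Of 39 oxidation genes 29 were higher and 2 lower in dsUsh than in dsMi-2 (median 0.79); 30 rose in dsUsh against control and none fell, while in dsMi-2 7 rose and 2 fell. The 29 became 24 to 29 with a library left out, and the 2 lower genes 0 without dsMi-2 replicate 3 or 2. In the synthesis list 5 of 18 were higher and 2 lower (3 and 1 without dsMi-2 replicate 3 or 2). In all 38.9% of the list was called, beside 35.4% of all genes. The median was 0.15, and it went to -0.003 after upper-quartile scaling and 0.04 after quantile normalisation (0.16 and 0.17 relative to all genes). Against control 1 gene rose and 5 fell in dsMi-2, and 0 rose and 3 fell in dsUsh. FASN1, fatty acid synthase, read 19098, 16793 and 24028 in dsMi-2 against 39942, 35554 and 40774 in dsUsh and 37549, 38688 and 56363 in control (0.97 ± 0.11, adjusted p = 0.000296). Acsl, which activates fatty acids (0.79), and ATPCL, ATP citrate lyase (0.66), fell in dsMi-2 too. CG9267, a 3-hydroxyacyl-CoA dehydratase (Hacd2 in RefSeq), fell in dsUsh and was lower there than in dsMi-2 (-0.62).

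Lipid storage and transport genes were higher in dsUsh for 10 of 24 measured and lower for 1. Seipin, which shapes lipid droplets, read 22199, 68734 and 32307 in dsUsh, 1280, 1510 and 1580 in dsMi-2 and 915, 1011 and 1006 in control (4.66 ± 0.26, adjusted p = 8.9e-06). The triacylglycerol synthase mdy differed by 2.38 and rose in dsUsh alone. The fatty-acid-binding protein fabp was opposite, at 18417, 19780 and 20677 in dsUsh, 3285, 2582 and 3121 in dsMi-2 and 5425, 4349 and 5431 in control (2.72 ± 0.09). The yolk protein gene Yp3 was the lower member (-2.26). Gk2, a glycerol kinase, was also opposite (3.59).

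Cell cycle genes were lower in Ush-depleted than in dMi-2-depleted cells, by modest amounts. The Cdc25 phosphatase string (stg), which triggers entry into mitosis, had the widest gap at 1728, 1858 and 1303 in dsUsh, 6337, 7619 and 7813 in dsMi-2 and 4703, 7431 and 4995 in control (-2.16 ± 0.15, adjusted p = 1.95e-05). The cytokinesis factor pbl read 1354, 1205 and 1242 against 2861, 2925 and 2810 (-1.18 ± 0.07), and the Aurora B partner borr (-1.13) and the kinetochore gene Nnf1a (-1.02) came next. The dsUsh libraries lay below all dsMi-2 libraries in each. Of 63 mitosis genes 35 were lower and 3 higher in dsUsh (median -0.50): fzr, which keeps cyclins low outside mitosis (0.63), and the microtubule regulators msps (0.67) and tacc (0.57). Against control 46 fell and 3 rose in dsUsh, and 1 rose and 1 fell in dsMi-2.

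Replication genes followed, with 30 of 44 lower and 1, chif, higher (median -0.51). Mcm5, a subunit of the replicative helicase, read 1351, 1325 and 1255 in dsUsh, 2497, 2862 and 2489 in dsMi-2 and 2197, 2624 and 1949 in control (-0.99 ± 0.08, adjusted p = 4.82e-05). Mcm7 (-0.99), RPA2, of the single-strand binding complex (-0.83), and RfC38, of the clamp loader (-0.82), were alike, and none of the 4 was called between dsMi-2 and control. In dsUsh 24 replication genes fell against control and in dsMi-2 no gene of the list was called. The counts rest in part on single libraries: without dsMi-2 replicate 3 the lower genes were 12 of the mitosis list and 14 of the replication list, and without dsMi-2 replicate 2 they were 11 and 20. Mitochondrial ribosomal genes, a family taken up after the values were seen, were lower for 22 of 72 and higher for 3 (7 and 1 without dsMi-2 replicate 3). Some further families taken up likewise were called less often than all genes (35.4%). They were the proteasome (18.2% of 33), translation initiation factors (19.4% of 36), nucleoporins (26.3% of 19) and long non-coding CR genes (18.7% of 379). Tetraspanins (52.4% of 21), clathrin adaptor subunits (71.4% of 7) and Jonah proteases (83.3% of 6), also taken up likewise, were called more often. Of 79 cytosolic ribosomal protein genes 1 was called, RpL34a (-0.33), a call lost in 13 of 22 alternatives (adjusted p up to 0.117). Of the 79, 77 had a negative difference (median -0.29). Upper-quartile scaling called 40 lower, but it moves all genes of a library alike and cannot test the median relative to all genes (-0.28). After quantile normalisation that relative median was -0.06, and 16 were called lower.

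**Figure D4:**
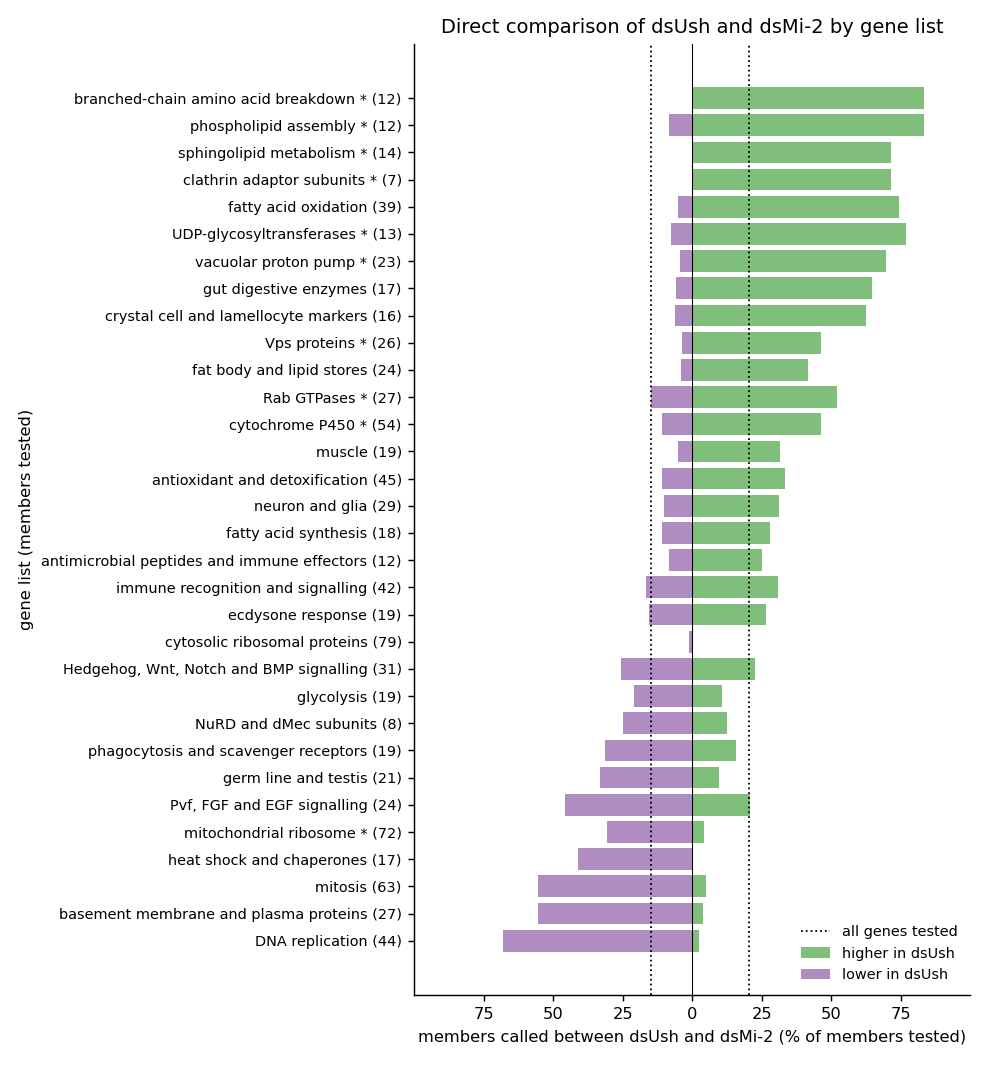
Share of each gene list drawn that was called higher (green, right) or lower (purple, left) in dsUsh than in dsMi-2. Shares are percentages of the members tested, whose number stands in brackets. An asterisk marks lists picked after the values were seen. Not every list examined is drawn. The dotted lines mark the shares over all genes, 20.3% and 15.0%; DNA replication (30 of 44 lower) stands at the bottom and branched-chain amino acid breakdown (10 of 12 higher) at the top.

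Blood cell genes differed by type. Crystal cells carry prophenoloxidases for melanisation and lamellocytes are the flat cells that wrap parasites. Of 16 crystal cell and lamellocyte markers 10 were higher and 1 lower in dsUsh (median 1.10). CG17109, an aminoacylase-like gene, read 1854, 3890 and 3206 in dsUsh, 11.6, 10.9 and 5.8 in dsMi-2 and 14.5, 5.2 and 3.2 in control (8.14 ± 0.46, adjusted p = 9.66e-06). The zinc-finger factor peb read 214, 256 and 224 against 17.5, 21.9 and 19.5 (3.50 ± 0.25), and the filamin cher (1.58) and the receptor mthl10 (1.87) were also higher. Integrin genes were among the 10, with mys and ItgaPS4 (1.36), the latter having risen in both depletions. The lower marker was PPO3 (-0.37), which rose in dsMi-2, and that call was lost whenever a library was left out.

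Genes of the plasmatocyte, the phagocytic blood cell, had no common direction. The scavenger receptor crq was higher in dsUsh, at 27516, 30121 and 31194 against 16650, 15303 and 18366 (0.82 ± 0.11), and the nimrod gene NimC4 lower, at 129, 60.2 and 58.7 against 383, 382 and 448 (-2.37 ± 0.29). Snmp1, a CD36-type membrane protein, rose in dsMi-2 alone and was lower in dsUsh (-3.13), while santa-maria, of the same family, was higher (2.72). The phagocytic receptor eater fell in both depletions, from 230, 95.8 and 196 in control to 4.3, 2.3 and 10.7 in dsUsh and 11.6, 9.0 and 12.7 in dsMi-2, and the direct difference did not pass (-1.03, adjusted p = 0.0374). Of 19 measured phagocytosis genes 3 were higher and 6 lower, the lower count falling to 2 without dsMi-2 replicate 2 or 3. The GATA factor srp differed by -0.43 (adjusted p = 0.0107). The GATA factor GATAe was higher in dsUsh (2.91), as was pnr by 0.34, a call lost in 14 of 22 alternatives.

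Immune recognition genes were higher in dsUsh for 13 of 42 and lower for 7, beside 20.3% and 15.0% of all genes. Without dsMi-2 replicate 3 the counts were 8 and 3. The modular protease modSP, at the head of the Toll-activating cascade, read 819, 616 and 652 in dsUsh against 17.5, 26.9 and 19.5 in dsMi-2 (4.98 ± 0.39, adjusted p = 3.75e-05), and the amidase PGRP-SC2 read 73.8, 96.6 and 59.8 against 7.8, 7.0 and 8.8 (3.12 ± 0.35). The Toll ligand gene spz went the other way, at 1216, 651 and 883 against 5535, 3503 and 3850 (-2.25 ± 0.12). PGRP-LC, the receptor of the Imd pathway, rose in both depletions and further in dsMi-2, at 357, 405 and 342 against 118, 94.3 and 106 in dsUsh and 48.9, 18.8 and 17.1 in control (-1.79 ± 0.30). Only 12 of 40 antimicrobial effector genes were measured, and 33.3% of the 12 were called, beside 35.4% of all genes. Drs, an antifungal peptide, read 154, 2527 and 189 in dsUsh against 7.8, 5.0 and 4.9 (5.96 ± 0.96), with dsUsh replicate 2 far above the others, and AttA and AttB were at the edge of the threshold (adjusted p = 0.00951 and 0.00847) and lost in 14 and 10 of 22 alternatives. CecC fell in both and was lower in dsUsh (-1.11).

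Growth factor signalling was lower in dsUsh for 11 of 24 genes and higher for 5, and without dsMi-2 replicate 3 for 6 and 3. Pvf1, a PDGF/VEGF-type ligand, rose in both depletions but more in dsMi-2, from 13.6, 7.3 and 13.9 in control to 1557, 1061 and 549, against 59.9, 330 and 39.5 in dsUsh (-3.37 ± 0.67, adjusted p = 0.00365). That call was lost in 6 of 22 alternatives. The FGF receptor htl had no read in dsUsh and 33.9, 9.9 and 23.4 counts in dsMi-2, at least 21.9-fold lower. The EGF receptor antagonist aos read 5146, 4400 and 4676 against 11505, 13686 and 19762 (-1.63 ± 0.19) and the feedback inhibitor kek1 946, 428 and 648 against 3006, 2369 and 3046 (-2.12 ± 0.14), both having fallen in dsUsh. The receptor Pvr (0.35) and the ligands Pvf2 (1.13) and Pvf3 were higher.

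In the Hedgehog, Wnt, Notch and BMP list 7 of 31 genes were higher and 8 lower, and without dsMi-2 replicate 3 the counts were 4 and 8. Of all genes 20.3% were higher and 15.0% lower. The ligand hh was low throughout, at 32.1, 34.1 and 18.1 in dsUsh and 1.9, 2.0 and 1.0 in dsMi-2 (3.44 ± 0.49, adjusted p = 0.000767), and its effector ci was higher too (2.50). The Notch glycosyltransferase fng read 644, 1724 and 875 against 72.7, 112 and 97.5 (3.40 ± 0.25), whereas the Notch target E(spl)mbeta-HLH was lower (-2.26), a call lost in 6 of 22 alternatives (adjusted p up to 0.0228). The Wnt receptors fz2 (-1.97) and fz3 (-1.83) rose in dsMi-2 alone. Of 19 ecdysone-response genes 5 were higher and 3 lower, the lower count falling to 1 without dsMi-2 replicate 2 or 3. Eip55E, named cystathionine gamma-lyase (Cth) in RefSeq, read 38171, 69698 and 34367 against 2244, 1678 and 1750 (4.59 ± 0.23), and the nuclear receptor gene Eip78C was higher (3.07), but Eip93F was lower (-1.86) and the receptor EcR did not pass (-0.09).

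Detoxification genes parted the depletions from both sides. The peroxiredoxin genes Prx2540-1 and Prx2540-2, near-identical copies between which reads can be split, read 2343, 9054 and 2646 and 4338, 15263 and 5097 in dsUsh. In dsMi-2 they read 66.9, 33.8 and 16.6 and 128, 55.7 and 41.9, and in control 1467, 1197 and 1116 and 2595, 2165 and 2013. Prx2540-1 fell by 5.18 and Prx2540-2 fell by 5.05 in dsMi-2; both were not called in dsUsh (adjusted p = 0.029 and 0.0226) and differed directly by 6.79 ± 0.49 and 6.68 ± 0.47. GstE2, a glutathione transferase, also fell in dsMi-2 alone (direct difference 2.64), whereas GstS1 rose in both and further in dsMi-2 (-1.36). Catalase (Cat, 2.46) and the P450 genes Cyp6a13 (4.15) and Cyp9h1 rose in dsUsh alone.

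Of 45 antioxidant genes 15 were higher and 5 lower in dsUsh, and the lower count was 2 without dsMi-2 replicate 2, dsMi-2 replicate 3 or dsUsh replicate 2. Over all 54 P450 genes measured, a family taken up after the values were seen, 25 were higher and 6 lower (20 and 0 without dsMi-2 replicate 3), and of 13 UDP-glycosyltransferases 10 and 1. Heat shock genes had no higher member, and 7 of 17 were lower. The small heat shock protein gene Hsp26 read 363, 826 and 499 in dsUsh against 2623, 3987 and 5195 in dsMi-2 (-2.83 ± 0.21, adjusted p = 2.84e-05), Hsp23 differed by -3.15, and the Hsp70Bc copy, near-identical to its neighbours, by -3.24. These 3 fell in dsUsh, while the co-chaperone stv rose in dsMi-2 alone (-2.67). Glycolysis genes were higher for 2 of 19, Hex-A, hexokinase (1.78), and Pfrx, which makes fructose 2,6-bisphosphate (1.59). Pfk, phosphofructokinase (-1.56), and fbp, fructose bisphosphatase (-1.08), were among 4 that were lower, a count that went to 0 without dsMi-2 replicate 3. In all 31.6% of the glycolysis list was called, beside 35.4% of all genes.

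Genes known from other tissues were examined as markers of cells the cultures should not hold. Of 17 of 50 measured gut enzyme genes 11 were higher and 1 lower in dsUsh. Amy-p, amylase, read 456, 291 and 260 in dsUsh with 3 reads over the dsMi-2 group, a ratio of 343 (95% counting interval 117 to 1660), and the protease Jon99Cii read 152, 117 and 79.0 with no read in dsMi-2, at least 118-fold higher. Jon66Ci was the lower member (-2.28) and rose in dsMi-2. The summed level of the 17 genes overlapped between the groups, at 50841 to 54340 in dsUsh, 52774 to 64735 in dsMi-2 and 56220 to 62478 in dsEGFP. That sum lies far above the counts of the genes named here and did not follow the list median of 2.57.

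Nerve and glia genes were higher for 9 of 29 measured and lower for 3. The potassium channel eag read 133, 276 and 376 in dsUsh against 16.5, 10.9 and 26.3 (3.75 ± 0.52), comm2 read 1129, 1106 and 1128 against 119, 42.8 and 236 (3.38 ± 0.47), and the lower members included the midline repellent sli (-2.62). Germ line genes were lower for 7 of 21 (3 without dsMi-2 replicate 3) and higher for 2, with tomb (-3.46) and the piRNA-pathway gene aub (-2.53) raised in dsMi-2. Muscle genes were higher for 6 of 19, led by the troponin I gene wupA (4.42), and lower for 1, the myosin light chain Mlc2 (-2.03), which rose in dsMi-2. The median of the muscle list was -0.03 and turned to 0.07 with edgeR and with DESeq2. Called in all were 41.4% of the nerve, 42.9% of the germ line and 36.8% of the muscle genes, beside 35.4% of all genes. Summed levels in dsUsh and dsMi-2 overlapped for the nerve list, at 14682 to 20882 and 17094 to 24948. They also overlapped for the germ line list, at 20453 to 31299 and 21253 to 26789. The muscle sum stood apart, at 20504 to 21248 and 13225 to 14977. So did the sum of the fat body and lipid stores list, at 82429 to 136805 and 27551 to 30078. The part of these 2 lists in the results was not tested.

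The separate Ush-B libraries came from cells depleted of a single isoform and were normalised in a table of their own, so their levels were not set against those above. There 1 of 9648 genes (0.0104%) passed a limma adjusted p under 0.05 and 684 had an unadjusted p under 0.05. The call was comm2 (log2 change 2.88 ± 0.30, adjusted p = 0.0492). The study, with DESeq2, reported more changed transcripts at that threshold. DESeq2 was not run on the Ush-B libraries here, and the cause of the smaller count was not tested. The ush transcript, all isoforms together, changed by -0.11 ± 0.18 (adjusted p = 0.928). Of the 1729 genes higher in dsUsh than in dsMi-2 that were tested there, 69.9% were higher in dsUsh-B than in its control, with a median log2 change of 0.09. Of the 1350 lower genes 27.2% were higher (median -0.10), beside 49.8% of all 8908 shared genes (median -0.001). The 91 and 59 opposite genes showed the same lean, with 71 and 15 higher in dsUsh-B. No opposite gene was called.

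**Figure D5:**
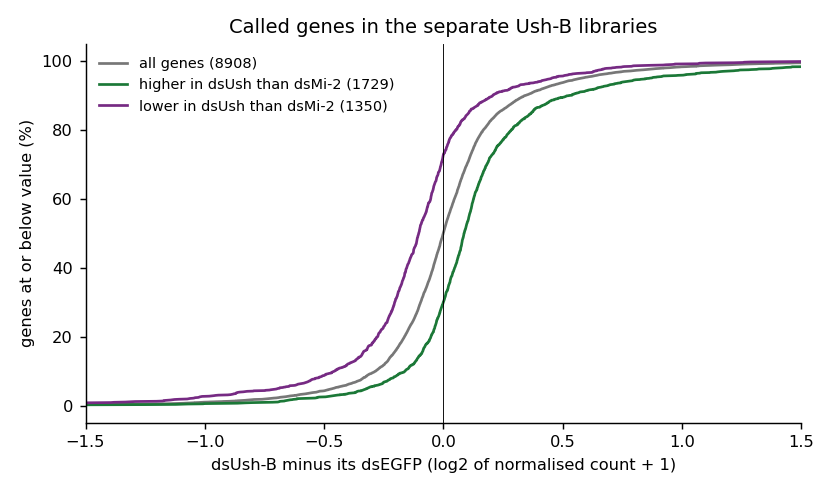
Cumulative share of genes by their log2 change in dsUsh-B against its own dsEGFP libraries, for the 8908 genes tested in both tables (grey) and for those called higher (1729, green) or lower (1350, purple) in dsUsh than in dsMi-2; the axis is drawn from -1.5 to 1.5 and a few genes lie outside it. The green curve lies to the right of the grey and the purple to the left, with medians of 0.09, -0.001 and -0.10.

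None of the 12 genes with the widest opposite gaps passed in the Ush-B table. CG3376 was at 3971, 4420, 4565 and 7846 in dsUsh-B and 2137, 216, 153 and 268 in its control (log2 change 3.75 ± 0.72, adjusted p = 0.313). CG15347, higher in dsUsh, was at 483, 682, 810 and 430 against 827, 881, 1060 and 891 (-0.65 ± 0.20), and Tsp96F, lower in dsUsh, was at 505, 434, 461 and 414 against 802, 551, 788 and 654 (-0.61 ± 0.14). SPARC overlapped between the groups, at 3653, 2064, 4423 and 1405 against 4779, 2426, 2423 and 7080 (-0.52 ± 0.44). CG14957 (1.93 ± 2.08), Reg-2 (0.22 ± 0.32), rgn (0.48 ± 0.31), CG10660 (-0.004 ± 0.15), CG31337 (-1.63 ± 1.02), Glycogenin (0.18 ± 0.44), CG44245 (-0.16 ± 0.41) and CG8213 (-0.06 ± 0.39) did not pass either. Of the lists, replication genes were higher in dsUsh-B for 2 of 44 (median -0.16), basement membrane genes for 7 of 26 (median -0.36) and fatty acid oxidation genes for 29 of 39 (median 0.11). Heat shock genes, lower in dsUsh, were higher in dsUsh-B for 15 of 17 (median 0.40).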

How the data were processed

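RNA-seq of S2[Cas9] cells was deposited as 2 tables of signal values per gene, which are read counts divided by a DESeq2 size factor by the authors, all isoforms of a gene together. Per the labels, reads were counted with featureCounts (1.6.2) and normalised with DESeq2 (2.11.40.2); the labels list the builds dm3 and dm6 without saying which was used for RNA-seq, the tool versions in the study's methods differ from theirs, and the annotation and strand setting are not given in the sources used here. Every deposited value was a whole multiple of a step per library (tolerance 0.05), so whole reads were recovered and used for the alternatives. Deposited comparison tables hold the authors' log2 fold changes and p-values and were not used. ChIP libraries were not analysed here.

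Log2 of the normalised count plus 1 was fitted with limma (3.58.1, R 4.3.3) over the 9 dsUsh, dsMi-2 and dsEGFP libraries, with the replicate number as a block, moderation along the mean trend and 4 residual degrees of freedom. Genes whose mean reached 5 were tested (9132 of 17737 listed), two-sided, with Benjamini-Hochberg adjustment and a threshold of 0.01. The 8 Ush-B libraries were fitted alone, with no block and a threshold of 0.05. Adjusted p-values in the text are from these fits, ± is the standard error of the fitted difference, and a fold change on this scale understates the change of low genes. The labels give replicate numbers without saying what a number shares. The block by replicate number was set by the plan of the comparison and was not chosen from these data. For all 9 pairs of same-numbered samples the deviations from the group mean were correlated (0.239 to 0.569). On simulated data with 200 changed genes the script was tested before use.

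Named were both targets, the 10 largest differences in each direction (mean over the 6 libraries 50 or more, groups apart), the 6 largest opposite genes in each pattern, up to 4 called members of each list and the NuRD and dMec subunits. The members and lists were chosen with earlier results of these data known, and families and pathways marked as such after their values were seen. Alternatives were no block, edgeR (4.0.16) and DESeq2 (1.42.0) on recovered reads, other pseudocounts, filters, scalings and thresholds, the 6 libraries alone, no trend, and each library left out. Gene names were matched to the RefSeq table for 17638 genes. Promoter motifs and sequences were not used here.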

Additional observations from a re-analysis of the deposited data

Results flagged for a closer look

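Among the 12 genes with the widest opposite gaps, 24 groups of 4 Ush-B table libraries were examined for a library far from the others. The examination used normalised counts, not their logs. Chance alone gives such a library in about 1 in 20 groups of normally distributed values, a rate that was not checked for counts. In 5 groups a library stood apart, each time the highest of its group, and no excess over chance is read from this number. For CG3376 a control library read 2136.6 against 153.1 to 267.5 in the other 3, and a dsUsh-B library read 7845.8 against 3970.9 to 4564.5. In dsUsh-B a library also read 6339.5 for CG14957 against 11.3 to 692.8, 217.6 for Reg-2 against 125.5 to 133.1, and 47.6 for CG31337 against 1.1 to 5.6.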

How the results depend on the processing

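Of 113 named calls 81 stood under all 22 alternatives, 22 were lost in 1 to 3 and 10 in more. Without the replicate block 2082 genes parted the depletions (2078 shared with the 3231), 759 were lower and 31 and 23 were opposite. Leaving out a library gave 1782 to 3169 genes in all, 1164 to 1826 higher, 618 to 1343 lower, 25 to 101 opposite with dsUsh up and 18 to 59 the reverse. The lowest counts came without dsMi-2 replicate 3, followed by replicate 2 (1956 in all, 1237 higher, 719 lower), and without replicate 1 852 were lower. Upper-quartile scaling and quantile normalisation called 2143 and 2130 lower, the latter with 92 opposite and dsUsh down. A threshold of 0.05 gave 2210 lower and 243 and 139 opposite, a further 2-fold limit 1443 genes, 898 higher, 545 lower, 18 and 25 opposite. Without the trend 27 and 33 were opposite, and DESeq2 gave 144 with dsUsh up. edgeR called 3247 genes, 3162 of them shared. The CDK2AP1 difference turned to -0.144 and -0.07 under these scalings and ranged from -0.109 to 0.0812 with a library left out. No called gene changed sign except 5 under quantile normalisation. In the Ush-B table a replicate block, added after seeing the data, called 0 of 9648 genes (763 at an unadjusted p under 0.05) where 1 was called without it. Same-numbered Ush-B libraries did not deviate together in all 4 pairs (correlation -0.049 to 0.66), and 4 of 8 lay closest to their own number. The causes were not tested. With 3 libraries per group and 4 residual degrees of freedom, small differences can be missed, and low genes rest on few reads. p-values measure the spread between libraries of a single line.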
